A study of Mus musculus with 24 samples.

Results

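The question was how closely the transcriptional response to lipopolysaccharide (LPS) agreed between bone marrow-derived macrophages that lack the G protein-coupled receptor GPR35 (KO) and wild-type macrophages (WT). It was answered for each gene as the LPS effect in KO minus the LPS effect in WT, on the log2 scale, with its 95% bounds. The data were 16 of the series' 24 libraries, 4 each of LPS-treated KO, untreated KO, LPS-treated WT and untreated WT. The other 8 libraries, treated with lysophosphatidic acid (LPA), entered only the scaling of the libraries and the common estimate of the spread. All cells came from male C57BL/6 mice, were differentiated from bone marrow with M-CSF for 7 days, and received 10 ng/mL LPS or nothing for 4 h. The labels do not say how the GPR35-deficient allele was made, nor whether the 4 replicates were separate animals or cultures, so the p-values measure the spread between these samples.

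No gene of 11590 had a different LPS effect in the 2 genotypes at an adjusted p below 0.05 (0%, edgeR quasi-likelihood test with Benjamini-Hochberg adjustment, smallest adjusted p 0.231). A test that finds no difference does not show equality, so equality was tested on its own. A gene counted as shown equal when a pair of one-sided tests placed the difference inside 1.5-fold in either direction at an adjusted p below 0.05. That held for 8785 genes (75.8%). With a wider limit of 2-fold it held for 10581 genes (91.3%), and with a narrower limit of 1.2-fold for 1878 genes (16.2%). An unadjusted p below 0.05 (edgeR) was reached by 698 genes (6.02%), 271 with a higher LPS effect in KO (2.34%) and 427 with a lower one (3.68%). If no gene differed, about 5% of genes, which is 580, would reach that cutoff. DESeq2 called 4 genes and limma voom 0, with 669 and 613 genes at an unadjusted p below 0.05.

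LPS, a component of the outer membrane of Gram-negative bacteria, is bound by CD14 and by the complex of TLR4 and MD-2 on macrophages. Signalling through the adaptors MyD88 and TRIF activates NF-kB and interferon regulatory factors, which induce cytokines, chemokines, interferon-stimulated genes and the inhibitors that end the response. GPR35 belongs to the rhodopsin-like G protein-coupled receptors, couples to Gi and G13 proteins, and is found in gut epithelium and in myeloid cells.

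The libraries differed in depth by genotype. They held 15167683 to 18204622 counts in LPS-treated KO, 16967776 to 21461866 in untreated KO, 35254531 to 36737497 in LPS-treated WT and 35496347 to 46697165 in untreated WT. By the sample descriptions KO libraries ran on 1 sequencing lane and WT libraries on 2, so lane and depth cannot be told apart from genotype. Gpr35 had 0 counts in LPS-treated KO, where 3 counts would be 0.0437 CPM, and 12 counts in untreated KO, against 46 counts in LPS-treated WT and 463 in untreated WT. All 10 macrophage markers were measured, with a summed level of 47548 to 51234 CPM (counts scaled to a common library size) in LPS-treated KO, 40845 to 42372 in untreated KO, 48633 to 50115 in LPS-treated WT and 41815 to 44128 in untreated WT. Of the markers of other cells, the 12 measured for neutrophils and their precursors summed to 416 to 741 CPM in LPS-treated KO, 403 to 717 in untreated KO, 500 to 709 in LPS-treated WT and 423 to 640 in untreated WT. No mast cell marker was measured. As no gene was called for a genotype difference in the LPS effect, that none of the markers was called says nothing about them. Shown equal within 1.5-fold were 9 of 10 macrophage and 1 of 12 neutrophil markers, against 75.8% of all genes. The same held for 0 of 2 dendritic cell, 0 of 2 T, NK and B cell, 1 of 2 erythroid and megakaryocyte, 0 of 6 stromal and 2 of 6 osteoclast markers. The part of other cells in the results was not tested. In bulk samples, fewer cells of a type and less RNA per cell cannot be told apart.

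LPS changed most of the measured transcriptome in each genotype. In KO, 4554 genes rose (39.3%) and 4985 fell (43%), and in WT 4709 rose (40.6%) and 5050 fell (43.6%), which is 82.3% and 84.2% of genes called in KO and WT. Averaged over the genotypes, 10217 genes were called (88.2%), 4888 higher with LPS (42.2%) and 5329 lower (46%), so 47.8% of calls were higher. When libraries were scaled by their totals alone that share was 24.5% and the median LPS effect moved by -0.53 log2, so LPS effects here are relative to the trimmed mean (TMM) scaling. The median genotype difference over all genes was -0.01 under TMM scaling and 0.05 under totals alone. Under library totals alone 7 list medians that are slightly negative under TMM were above 0, namely 0.04 for the TLR4 list, 0.03 for oxidative phosphorylation, 0.05 for G protein partners, 0.05 for reference genes, 0.05 for antigen presentation, 0.01 for macrophage factors and 0.06 for alternative activation.

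How well a gene could be placed depended on its level. Of genes with a mean under 2 CPM over the 16 libraries, 37 of 1122 were shown equal within 1.5-fold (3.30%). The share was 55.5% at 2 to 10 CPM (1357 of 2443), 90.6% at 10 to 50 CPM, 93.8% at 50 to 200 CPM and 93.4% at 200 CPM and over. By the group in which a gene was lowest, with under 1 CPM there, 1.19% of genes were shown equal, with 20 CPM or more, 96.0%. Over all genes the median standard error of the difference was 0.13 log2, and the bound farther from equality stood at a median of 1.29-fold and a 90th percentile of 2.07-fold. The 95% bounds themselves lay inside 1.5-fold for 8475 genes (73.1%).

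Strongly LPS-responsive genes were placed less well. Of the 4034 genes that changed at least 2-fold on average, 2194 (54.4%) were shown equal within 1.5-fold, 3244 (80.4%) within 2-fold and 111 within 1.2-fold. Among them were 1680 that rose, of which 1122 (66.8%) were shown equal, and 2354 that fell, of which 1072 (45.5%) were. The median level was 65.1 CPM for genes that rose and 6.26 CPM for genes that fell. For changes of at least 8-fold, 57 of 248 genes that rose (23.0%) and 15 of 249 that fell (6.02%) were shown equal. Of the 6183 genes called with smaller changes, 5536 (89.5%) were shown equal. Among responsive genes the share was 1.88% under 2 CPM, and 88.8% at 200 CPM and over.

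**Figure D1:**
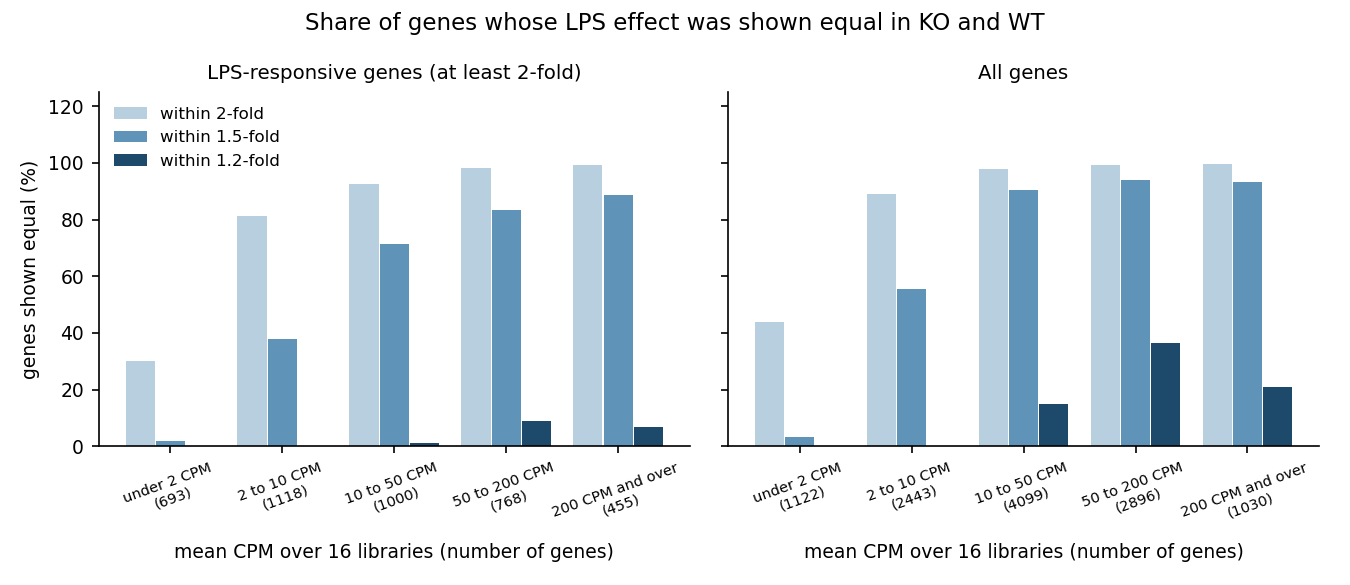
Percentage of genes whose LPS effect was shown equal in KO and WT within 2-fold, 1.5-fold and 1.2-fold (bars, light to dark), by mean CPM over the 16 libraries, for LPS-responsive genes (left) and all genes (right); gene numbers stand under each bin. Within 1.5-fold the share climbed to 88.8% of responsive genes and 93.4% of all genes at 200 CPM and over, from 1.88% and 3.30% under 2 CPM.

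Of the 2805 genes not shown equal within 1.5-fold (24.2%), 1840 were LPS-responsive and 2171 had a mean under 10 CPM. The estimate itself lay inside 1.5-fold for 2489 of them and outside for 316. Within 2-fold, 1009 genes were not shown equal (8.71%). An estimate outside 2-fold was found for 53 genes, and 12 of those reached a mean of 2 CPM. Equality and difference were separate verdicts: of the genes with an unadjusted p below 0.05 for the difference (edgeR), 436 were shown equal and 262 were not. None of them was called after adjustment in this fit, so a real difference was not shown for any of them.

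The KO and WT effects, which share no library, lay along one line across genes. Pearson's r was 0.988 and Spearman's rho 0.988 over the 11585 genes with counts in every group, and 95.6% of genes had the same sign in both genotypes. Over 4029 responsive genes r was 0.991 and every gene had the same sign, but these genes were chosen by an effect averaged over both genotypes, which favours both values. Genes are not independent replicates, so these values describe the 4 groups of libraries. The orthogonal slope of the KO effect on the WT effect was 0.964 over all genes and 0.965 over responsive genes, and the median size of a responsive gene's effect was 1.62 log2 in KO and 1.69 in WT.

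**Figure D2:**
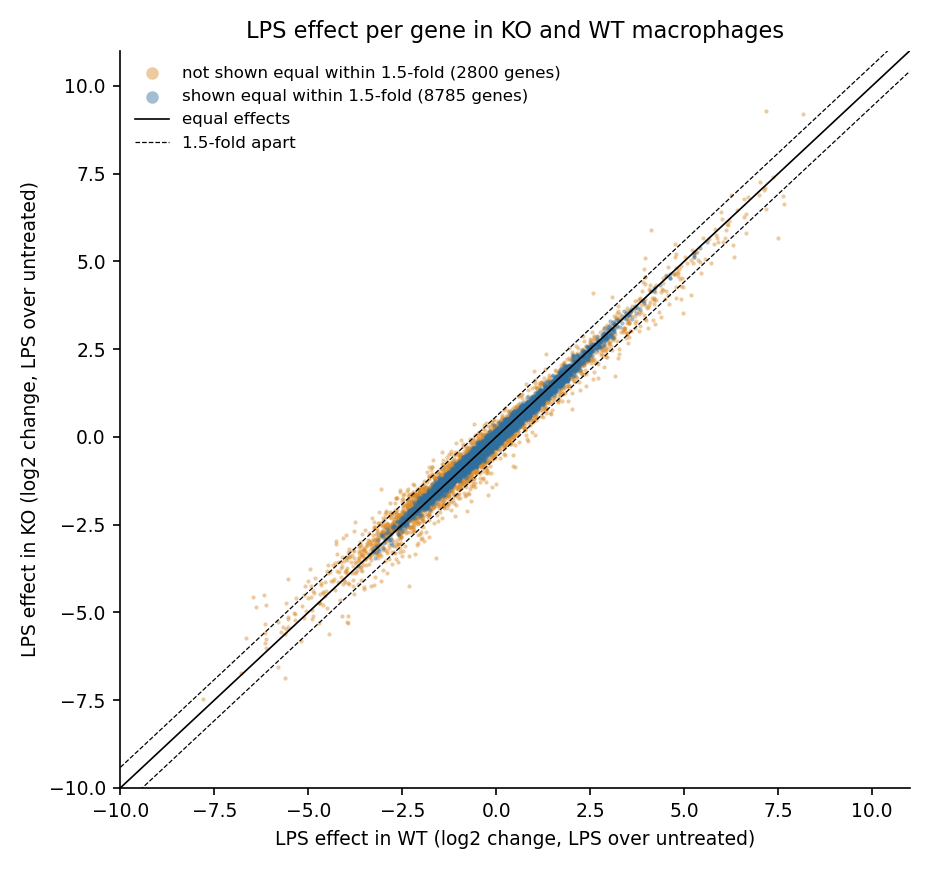
LPS effect of each gene (log2 change, LPS over untreated) in KO on the vertical axis and in WT on the horizontal axis, blue where shown equal within 1.5-fold and orange where not; the 5 genes with no count in some group are not drawn. The points follow the line of equal effects, and the orange points spread most at large effects.

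The small shortfall of the slope showed in both directions of response. Genes that rose at least 2-fold had a median effect of 1.61 log2 in KO and 1.69 in WT, a median difference of -0.07, and 68.7% of them had the lower effect in KO. Genes that fell at least 2-fold had median effects of -1.62 in KO and -1.68 in WT, a median difference of 0.08. Under library totals alone the difference was -0.01 for rises, with 53% of them lower in KO, and 0.14 for falls. In every alternative run the difference was below 0 for rises and above 0 for falls. Without the first untreated KO library it was -0.10 for rises and 0.12 for falls. Without the fourth LPS-treated KO library it was -0.04 for rises and 0.03 for falls.

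That library was the shallowest of the 16 and had the smallest response. The slope of each library's changes on the averaged LPS effect, over 3341 responsive genes of at least 2 CPM, was 0.983, 1.02, 0.960 and 0.907 in LPS-treated KO libraries, against 1.03, 1.00, 1.01 and 0.966 in LPS-treated WT libraries. Their means were 0.966 ± 0.0458 in KO and 1.00 ± 0.0251 in WT (SD, n = 4 each). The groups overlapped, and the fourth library was the lowest in each genotype.

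Of 27 measured members of the receptor complex and its adaptors, 19 rose and 5 fell in KO and 18 rose and 4 fell in WT. Over all genes, for this list and those below, 39.3% rose and 43% fell in KO, and 40.6% rose and 43.6% fell in WT. Within 1.5-fold 23 were shown equal, against 75.8% of all genes, and within 2-fold 26, against 91.3%, with a median difference of -0.02. Tlr4 itself changed by -0.59 log2 in KO and -0.57 in WT, and its difference had bounds of -0.26 and 0.22. Cd14, the co-receptor that hands LPS to the complex, changed by 2.44 in KO and 2.45 in WT (bounds of the difference -0.40 and 0.37), and Myd88, the adaptor, by 2.11 in KO and 2.18 in WT (bounds -0.30 and 0.15). All 3 were shown equal. Ticam1, which encodes TRIF, rose 2.30-fold in KO and 2.74-fold in WT and was also shown equal, with bounds of -0.49 and -0.01.

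Irak2, a kinase of the MyD88 pathway, had the largest rise of the list. It stood at 486, 519, 483 and 421 CPM in LPS-treated KO and 70.2, 76.7, 75.7 and 82.4 CPM in untreated KO, against 526, 505, 527 and 474 CPM in LPS-treated WT and 82.2, 82.3, 74.1 and 74.8 CPM in untreated WT. Every LPS-treated library was above every untreated one, and the genotypes overlapped in both conditions. The rise was 6.26-fold in KO and 6.48-fold in WT, and the ratio of the rises, KO over WT, was 0.965 with 95% bounds of 0.820 and 1.14. The list's widest member was Sigirr, an inhibitory receptor of the family, with a difference of 0.58 and bounds of -1.08 and 2.24, which places it neither as equal nor as different.

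All 5 NF-kB subunits rose in each genotype and all 5 were shown equal within 1.5-fold, against 75.8% of all genes. Nfkb1, which encodes p105 and p50 (chromosome 3, 135584655 to 135691969, GRCm38.p6), stood at 1019, 1000, 1005 and 838 CPM in LPS-treated KO and 215, 201, 218 and 223 CPM in untreated KO. In WT it stood at 1007, 952, 997 and 880 CPM with LPS and 217, 228, 235 and 218 CPM untreated. The fourth LPS-treated library was the lowest in each genotype, and the genotypes overlapped. The rise was 4.50-fold in KO and 4.27-fold in WT, a difference of 0.07 ± 0.09 log2 (SE) with bounds of -0.12 and 0.27. Rel had a difference of 0.10 (bounds -0.12 and 0.32), Nfkb2 of -0.03 (-0.30 and 0.25), Relb of 0.10 (-0.17 and 0.37) and Rela of 0.00 (-0.19 and 0.20).

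Feedback inhibitors mostly rose. Of 26 measured, 23 rose in KO and 24 in WT. Within 1.5-fold 18 were shown equal and within 2-fold 22, against 75.8% and 91.3% of all genes. Their median difference was -0.07, with 19 lower in KO (73.1%). That was near the median of -0.07 and the 68.7% lower among genes that rose at least 2-fold. Over all genes the values were -0.01 and 52.6%. The list's median was -0.02 with 14 lower under library totals alone or without the third untreated KO library, -0.02 with 15 lower without the fourth LPS-treated KO library, and -0.16 without the first untreated KO library. Nfkbia, which encodes the inhibitor IkBa, rose by 2.62 log2 in KO and 2.71 in WT (bounds of the difference -0.44 and 0.26), and Tnfaip3, which encodes the ubiquitin-editing enzyme A20, by 2.99 in KO and 3.00 in WT (-0.33 and 0.30). Irak3, an inhibitor of the IRAK kinases, rose by 3.08 in KO and 3.05 in WT (-0.21 and 0.28). Il10, the anti-inflammatory cytokine, had a difference of -0.00 with bounds of -0.50 and 0.49. Nfkbia, Tnfaip3, Irak3 and Il10, like several further list members below, were picked for their known roles after the values were seen.

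Nfkbiz, which encodes the nuclear inhibitor-like protein IkB-zeta, stood at 838, 833, 838 and 694 CPM in LPS-treated KO and 55.2, 56.0, 61.7 and 67.2 CPM in untreated KO, against 907, 860, 876 and 781 CPM in LPS-treated WT and 67.3, 65.0, 68.7 and 64.0 CPM in untreated WT. The fourth LPS-treated library was again the lowest in each genotype. The rise was 13.3-fold in KO and 12.9-fold in WT, with bounds on the ratio of 0.866 and 1.23. Dusp1, a phosphatase that switches off p38 and JNK, rose by 1.24 log2 in KO and 2.02 in WT. Its difference of -0.78 had bounds of -1.25 and -0.32 but an adjusted p of 0.431 (edgeR), the smallest of the list, so it was neither called different nor shown equal.

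Dusp2, a phosphatase of MAP kinases, had the largest rise among the genes shown equal of those taken from each list for the size of their LPS effect, up to 3 a list. It stood at 161, 142, 144 and 115 CPM in LPS-treated KO and 5.79, 4.49, 7.34 and 6.68 CPM in untreated KO, against 175, 152, 150 and 143 CPM in LPS-treated WT and 6.28, 6.78, 6.71 and 5.36 CPM in untreated WT. The genotypes overlapped in both conditions. The rise was 23.0-fold in KO and 24.6-fold in WT, with bounds on the ratio of 0.689 and 1.27. Without the second untreated KO library Dusp2 was not shown equal. To show what lies upstream of transcripts that rose alike, the promoters of Dusp2 and of Rsad2, the strongest riser of the interferon-stimulated list, are printed from RefSeq (GRCm38.p6), 250 bases before to 50 after the start. Both were chosen after the values were seen. Dusp2 is on the plus strand at chr2:127335909-127336208, and Rsad2 on the minus strand at chr12:26456403-26456702. Capitals mark a match to an interferon-response-like motif, and only Rsad2 has one.
Dusp2: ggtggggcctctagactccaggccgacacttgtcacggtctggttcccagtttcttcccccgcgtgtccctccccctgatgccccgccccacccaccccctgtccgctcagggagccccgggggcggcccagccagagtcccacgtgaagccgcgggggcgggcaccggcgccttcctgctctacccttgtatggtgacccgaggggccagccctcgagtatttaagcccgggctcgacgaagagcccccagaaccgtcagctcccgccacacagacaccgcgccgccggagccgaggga
Rsad2: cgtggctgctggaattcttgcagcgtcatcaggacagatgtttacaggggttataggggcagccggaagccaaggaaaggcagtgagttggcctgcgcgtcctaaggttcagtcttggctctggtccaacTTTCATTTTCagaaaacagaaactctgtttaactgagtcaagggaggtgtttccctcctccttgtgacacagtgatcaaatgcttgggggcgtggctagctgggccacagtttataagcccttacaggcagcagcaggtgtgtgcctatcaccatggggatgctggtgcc

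The motifs searched, on both strands, were GGG, any 2 bases and TTTCC for NF-kB, and GAAA, any 2 bases and GAAA for interferon response elements. Neither was found in the Dusp2 window. In that of Rsad2 the capitals read the second motif on the opposite strand and start 120 bases before the transcription start. Of 27025 RefSeq promoters 1.62% held the first motif and 3.49% the second. Among the 891 promoters of genes that rose at least 2-fold and were shown equal, 2.47% held the first and 7.63% the second, and among the 405 of genes that rose and were not shown equal, 3.46% and 9.88%. A match describes letters in a window and not a bound site.

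Pro-inflammatory cytokines rose throughout, but most could not be placed within 1.5-fold. All 20 measured rose in each genotype, with a median effect of 3.70 log2 in KO and 3.71 in WT. Only 4 were shown equal within 1.5-fold (20%) and 14 within 2-fold (70%), against 75.8% and 91.3% of all genes. Genes that rose at least 8-fold gave 23.0% and 59.7%. The median difference was -0.10, but 0.02 without the first LPS-treated WT library and -0.19 without the first untreated KO library. Tnf averaged 2034 ± 332 CPM in LPS-treated KO and 40.6 ± 10.1 CPM in untreated KO, against 2087 ± 141 CPM in LPS-treated WT and 41.3 ± 5.36 CPM in untreated WT (SD, n = 4). Its rises of 5.65 log2 in KO and 5.66 in WT differed by -0.01, yet the bounds of -0.66 and 0.64 reached past 1.5-fold. For Il1b the difference was -0.34 with bounds of -1.11 and 0.42, and for Il12b, a subunit of IL-12 and IL-23, the ratio of the rises had bounds of 0.435 and 1.61.

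Il6 stood at 37.2, 33.4, 38.3 and 13.4 CPM in LPS-treated KO and 0.579, 0.423, 0.426 and 0.246 CPM in untreated KO. In WT it stood at 39.2, 27.9, 33.1 and 19.3 CPM with LPS and 0.567, 0.438, 0.445 and 0.401 CPM untreated. The fourth library was the lowest in all 4 groups, and the genotypes overlapped. The difference was 0.20 ± 0.65 (SE), with bounds of -1.15 and 1.55. Csf3, which encodes the granulocyte growth factor G-CSF, had the widest bounds of the named cytokines, -4.33 and 0.67 around -1.83, with no count in 2 of the untreated KO libraries. Edn1, which encodes the vasoconstrictor endothelin, rose 117-fold in KO and 199-fold in WT, with bounds on the ratio of 0.157 and 2.19.

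Of 20 chemokines measured, 18 rose in each genotype. Within 1.5-fold 3 were shown equal (15%) and within 2-fold 13 (65%), against 75.8% and 91.3% of all genes. Genes that rose at least 8-fold gave 23.0% and 59.7%. Only 1 chemokine was shown equal within 1.5-fold in each of 6 fits that left out a library. The median difference was -0.07, with 9 members higher and 11 lower in KO, but 0.07 without the third untreated WT library and -0.19 without the first untreated KO library. Ccl7, a monocyte attractant, stood at 40.2, 24.2, 25.9 and 30.7 CPM in LPS-treated KO and 0.802, 0.581, 0.663 and 1.35 CPM in untreated KO, against 47.8, 58.2, 92.98 and 49.3 CPM in LPS-treated WT and 0.567, 0.990, 0.816 and 0.676 CPM in untreated WT. With LPS the 4 KO libraries were all below the 4 WT libraries, and untreated they overlapped. The rise was 34.8-fold in KO and 80.7-fold in WT, but the difference of -1.21 had bounds of -2.56 and 0.13 and an adjusted p of 0.869 (edgeR). The chemokines with the next lowest estimates, picked after the values were seen, were Ccl2 at -0.97 (bounds -2.18 and 0.23) and Ccl8 at -0.90 (-1.71 and -0.08), and those with the highest were Cxcl14 at 0.35 (-0.29 and 0.99) and Cxcl1 at 0.27 (-0.86 and 1.41). None was called.

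Cxcl2, a neutrophil attractant, rose 38.7-fold in KO and 38.2-fold in WT with bounds on the ratio of 0.535 and 1.92, which sufficed for 2-fold but not for 1.5-fold. Ccl4, which attracts monocytes and T cells, stood at 1295, 1058, 1020 and 917 CPM in LPS-treated KO and 20.8, 21.1, 17.6 and 30.9 CPM in untreated KO, against 1485, 1535, 1796 and 1192 CPM in LPS-treated WT and 23.2, 24.8, 23.4 and 20.9 CPM in untreated WT. One KO library with LPS reached into the WT range. The difference of -0.46 had bounds of -1.05 and 0.14. Ccl5, a T cell attractant, was the strongest riser of the 3 chemokines shown equal, at 5.13 log2 in KO and 5.27 in WT.

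Interferon-stimulated genes were high in level and all rose in each genotype, 37 of 37. All 37 were shown equal within 2-fold, against 91.3% of all genes. Within 1.5-fold 23 were (15 without the second untreated KO library), against 75.8% of all genes. The median difference was 0.08 and 10 had the lower effect in KO, but over the alternatives run the median lay between -0.05 and 0.21, so no direction is given. Ifit1, an inhibitor of viral translation, had the highest estimate at 0.30 (bounds -0.17 and 0.77), and Irf7, an amplifier of interferon induction, the lowest at -0.30 (-0.78 and 0.19). Members of the Ifit and Oas families resemble each other closely, and how shared reads were counted is not given in the sources used here.

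Rsad2, which encodes the antiviral enzyme viperin, stood at 5854, 6761, 4844 and 4986 CPM in LPS-treated KO and 225, 367, 245 and 411 CPM in untreated KO. In WT it stood at 5971, 6922, 9531 and 7299 CPM with LPS and 453, 418, 375 and 378 CPM untreated. The genotypes overlapped in both conditions. The rise was 17.99-fold in KO and 18.3-fold in WT, with bounds on the ratio of 0.663 and 1.46. Rsad2 was shown equal within 1.5-fold here and in 13 of 25 alternatives.

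Effector and metabolic enzymes of activated macrophages rose strongly, 22 of 24 in each genotype. Of the 24, 10 were shown equal within 1.5-fold and 16 within 2-fold, against 75.8% and 91.3% of all genes. The median difference was 0.02 (-0.03 without the fourth LPS-treated WT or the first untreated KO library). Acod1, which makes itaconate from aconitate, was among the most abundant. It stood at 10064, 10530, 8980 and 7851 CPM in LPS-treated KO and 77.8, 116, 109 and 120 CPM in untreated KO, against 9887, 9651, 10903 and 8873 CPM in LPS-treated WT and 129, 128, 97.7 and 108 CPM in untreated WT. The genotypes overlapped with and without LPS. The rise was 88.6-fold in KO and 84.9-fold in WT, with bounds on the ratio of 0.680 and 1.60, just short of the 1.5-fold verdict. DESeq2, a fit of the 16 libraries alone and a fit with the replicate number as a block each placed it within 1.5-fold.

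Ptgs2, the inducible cyclooxygenase, stood at 758, 812, 758 and 360 CPM in LPS-treated KO and 6.24, 9.88, 11.3 and 7.79 CPM in untreated KO. In WT it stood at 959, 935, 859 and 691 CPM with LPS and 9.77, 10.1, 6.90 and 8.67 CPM untreated. The fourth KO library with LPS lay far under the other 3. The difference was -0.34 with bounds of -1.15 and 0.47. Nos2, which makes nitric oxide, rose 70.3-fold in KO and 73.6-fold in WT, with bounds on the ratio of 0.415 and 2.20.

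**Figure D3:**
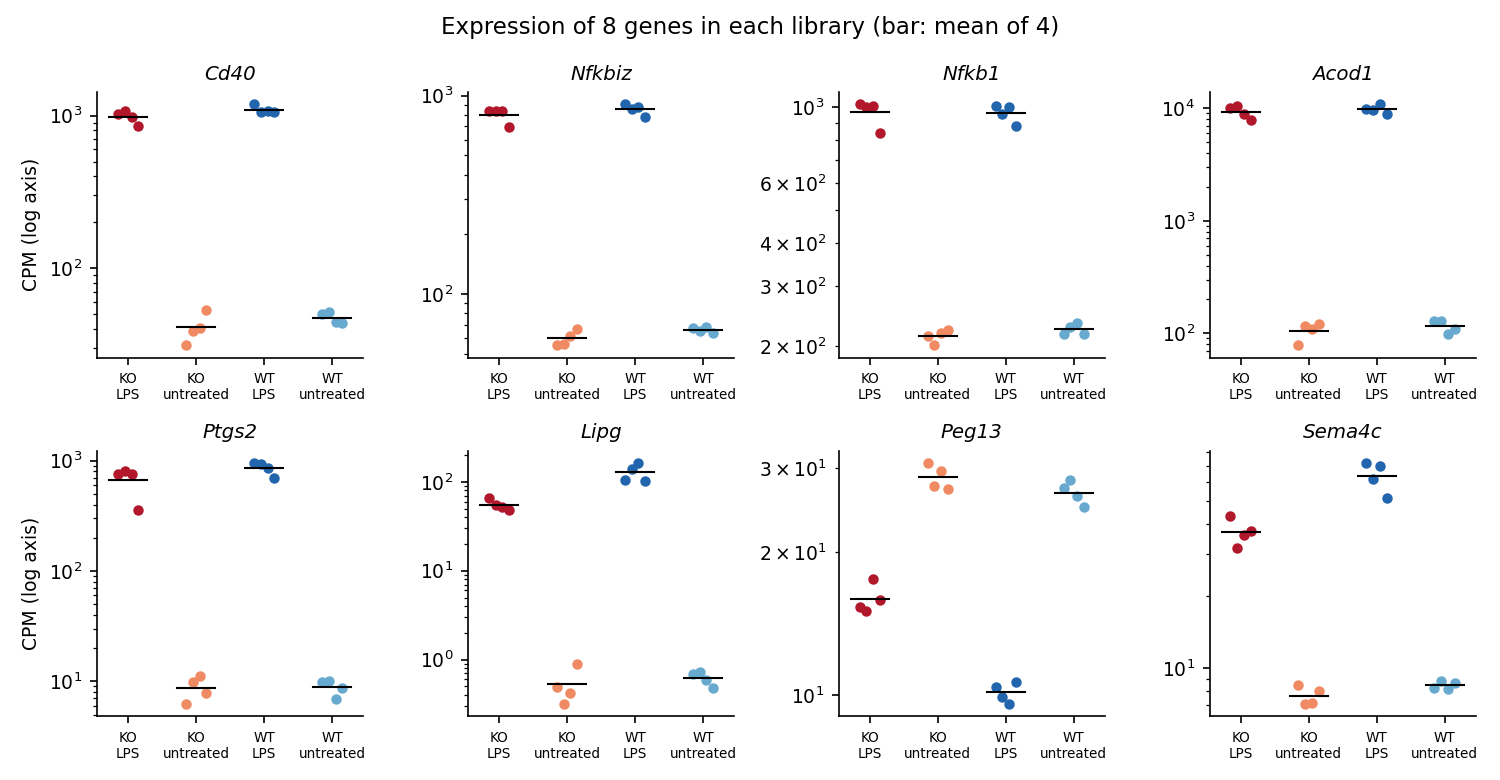
CPM on log axes in each of the 16 libraries for 8 genes, with a bar at the mean of the 4 libraries of a group. Cd40, Nfkbiz and Nfkb1 were shown equal within 1.5-fold, Acod1, Ptgs2 and Lipg were not, and Peg13 and Sema4c were picked after their values were seen for their small p.

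Of 22 sterol biosynthesis genes 18 rose in KO, against 39.3% of all genes, and 19 in WT, against 40.6%, by a median of 1.68 log2 in KO and 1.93 in WT. The difference was negative in 21 of 22, against 52.6% of all genes and 68.7% of genes that rose at least 2-fold. Its median was -0.19, against -0.07 for genes that rose at least 2-fold. Over the alternatives the list's median ranged from -0.31 to -0.08, and 19 to 21 of the 22 were lower in each. No member was called different. Within 1.5-fold 7 were shown equal and within 2-fold all 22, against 75.8% and 91.3% of all genes. Leaving out 1 library gave 1 (without the first untreated or the second LPS-treated KO library) to 12 (without the first LPS-treated KO library) within 1.5-fold. Idi1, which isomerises isopentenyl diphosphate, stood at 44.4, 67.3, 53.7 and 61.1 CPM in LPS-treated KO and 7.04, 12.2, 10.9 and 10.8 CPM in untreated KO, against 60.0, 69.8, 64.0 and 65.4 CPM in LPS-treated WT and 10.52, 7.82, 8.34 and 9.80 CPM in untreated WT. In each condition the first KO library was the lowest of all 8, and the genotypes overlapped. Its difference was -0.36 with bounds of -1.06 and 0.34.

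The list of the sterol-sensing LXR receptors, their targets and cholesterol efflux genes had 12 of 15 members shown equal within 1.5-fold, near the 75.8% of all genes. Its median difference of 0.01 took either sign over the alternatives. Arl4c, a small GTPase and LXR target, stood at 17.4, 17.9, 16.7 and 20.5 CPM in LPS-treated KO and 250, 212, 238 and 226 CPM in untreated KO, against 15.7, 19.8, 19.7 and 22.9 CPM in LPS-treated WT and 240, 239, 251 and 277 CPM in untreated WT. Every LPS-treated library was below every untreated one, and the genotypes overlapped. It fell by 3.68 log2 in KO and by 3.69 in WT, with bounds on the difference of -0.29 and 0.32. Abca1, the cholesterol exporter, changed by -0.34 in KO and -0.64 in WT; the bounds of its difference, 0.13 and 0.46, left out 0 and still lay inside 1.5-fold.

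Antigen presentation was shown equal in 19 of 21 members within 1.5-fold (90.5%) and in all 21 within 2-fold. Within 1.5-fold that compares with 75.8% of all genes, but with 93.4% of genes at 200 CPM and over. The list's median level was 293 CPM. Cd40, the co-stimulatory receptor, stood at 1020, 1078, 975 and 853 CPM in LPS-treated KO and 31.2, 38.7, 40.9 and 53.1 CPM in untreated KO. In WT it stood at 1189, 1054, 1067 and 1048 CPM with LPS and 50.1, 51.6, 44.8 and 43.7 CPM untreated. The genotypes overlapped in both conditions. The rise was 23.9-fold in KO and 22.9-fold in WT, with bounds on the ratio of 0.788 and 1.39. Nlrc5, the activator of class I genes, rose 4.82-fold in KO and 4.92-fold in WT and was shown equal. Ciita, the activator of class II genes, fell by 2.99 log2 in KO and by 3.17 in WT and was shown equal within 2-fold only.

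**Figure D4:**
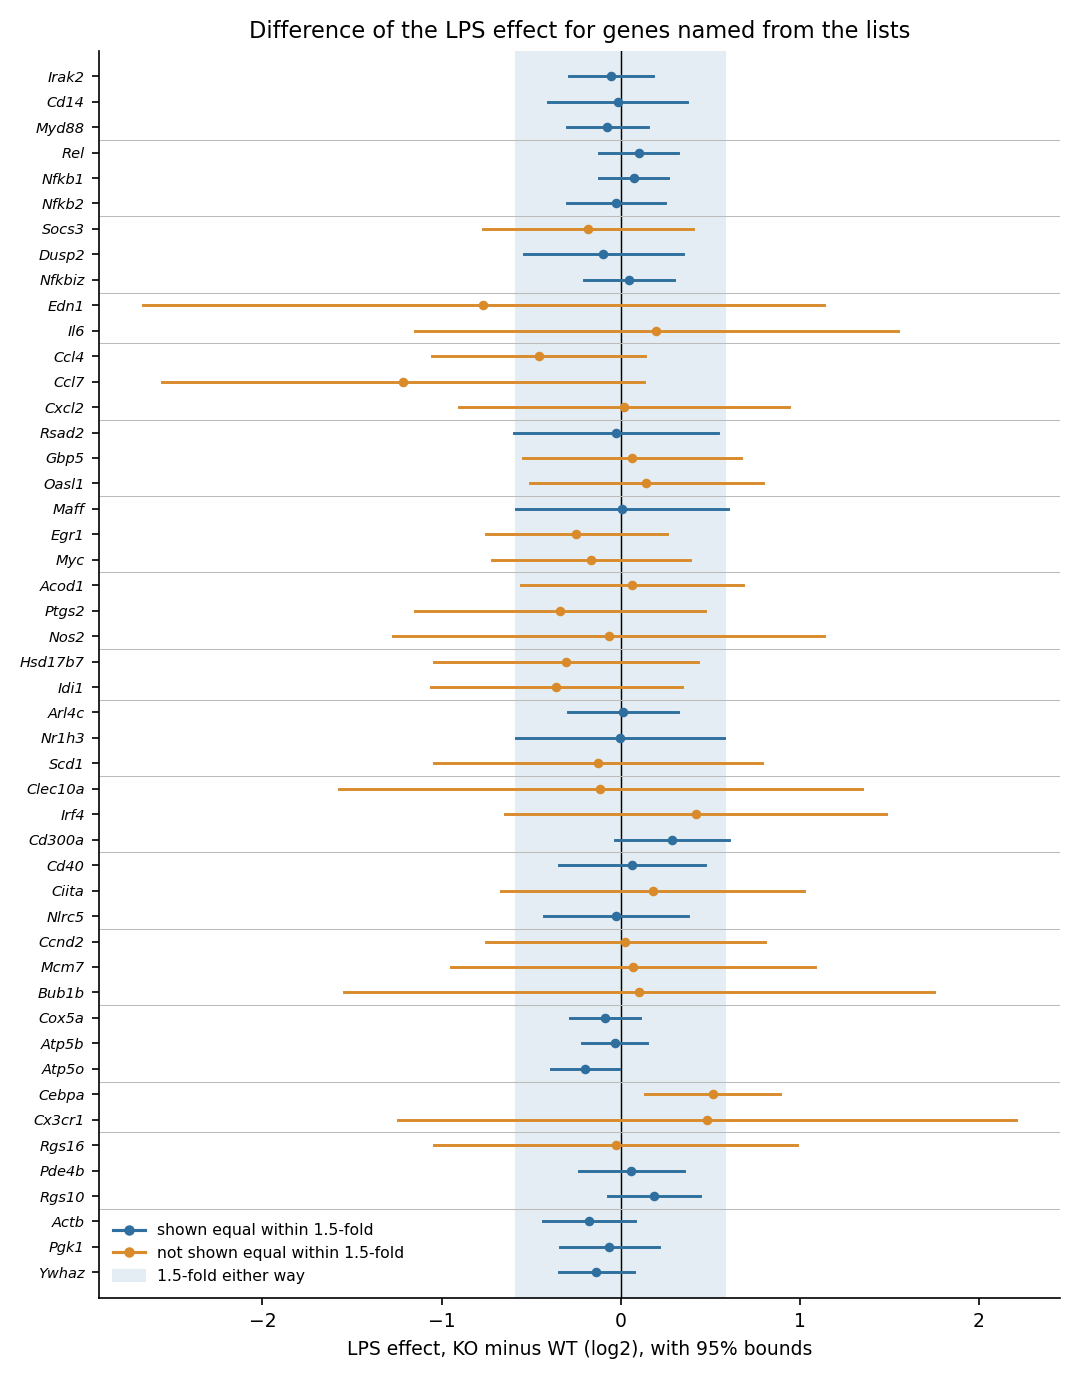
Difference of the LPS effect, KO minus WT (log2), with its 95% bounds, for the genes named from each list by the size of their averaged LPS effect, with thin lines between lists; genes whose bounds span 4 log2 units or more, and genes not reported here, are left out. Blue genes were shown equal within 1.5-fold (shaded), orange ones were not; Rsad2, Maff and Cd300a are blue with a bound slightly past the limit because the equality test uses one-sided tests.

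Immediate-early factors are transcription factors that respond within minutes to hours. Of 20 members 9 were shown equal within 1.5-fold and 18 within 2-fold, against 75.8% and 91.3% of all genes. Without the second untreated WT, the second untreated KO or the third LPS-treated KO library, 5 were shown equal within 1.5-fold. Their median difference was -0.11, with 15 lower in KO (75%), and was negative in each alternative run. Genes that rose at least 2-fold had a median of -0.07, with 68.7% lower. Egr1 rose 5.87-fold in KO and 6.97-fold in WT (bounds on the ratio 0.593 and 1.198), and Myc 4.25-fold in KO and 4.76-fold in WT (0.608 and 1.31). Maff, a small Maf protein, rose 10.9-fold in KO and 10.8-fold in WT and was shown equal, a verdict kept in 8 of 25 alternatives.

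Alternative activation and efferocytosis genes mostly fell, 12 of 20 in each genotype. Within 1.5-fold 11 were shown equal, against 75.8% of all genes. That count was 6 without the second untreated WT library and 7 without the fourth LPS-treated WT or the first LPS-treated KO library. The median difference of -0.01 took either sign over the alternatives. Mrc1, the mannose receptor, changed by -1.38 log2 in KO and -1.45 in WT, with bounds on the difference of -0.17 and 0.31. Cd300a, an inhibitory receptor for dying cells, fell by 2.62 in KO and by 2.91 in WT and was shown equal, a verdict kept in 15 of 25 alternatives. Clec10a, a lectin, had bounds of -1.57 and 1.35.

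Macrophage receptors and lineage factors had 18 of 25 members shown equal within 1.5-fold and 23 within 2-fold, near the 75.8% and 91.3% of all genes. Their median difference was -0.05, but 0.01 without the third untreated WT library and 0.0023 without the fourth LPS-treated WT library. Spi1, which encodes the transcription factor PU.1, rose by 1.54 in KO and 1.53 in WT (bounds of the difference -0.22 and 0.25). Cebpa, a myeloid transcription factor, changed by -3.11 in KO and -3.62 in WT, with bounds of 0.14 and 0.89 and an adjusted p of 0.586 (edgeR). Its 4 KO libraries with LPS stood at 13.5, 11.8, 16.6 and 12.7 CPM, all above the WT values of 10.8, 10.2, 9.05 and 11.6 CPM. Untreated, it stood at 134, 107, 122 and 110 CPM in KO and 131, 126, 117 and 141 CPM in WT, which overlapped.

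The list of partners of G protein-coupled receptors is general and holds more than the Gi and G13 subunits to which GPR35 couples. Of its 23 members 18 were shown equal within 1.5-fold and all 23 within 2-fold, against 75.8% and 91.3% of all genes. The median difference was -0.02 (0.01 without the first untreated KO library). Gnai2 and Gnai3, which encode Gi subunits, had bounds of -0.10 and 0.13 and of -0.15 and 0.15. Gna13, which encodes the G13 subunit, had a difference of -0.13 (bounds -0.28 and 0.02), and Arrb2, a beta-arrestin, of 0.05 (-0.11 and 0.21). Arrb1, the other beta-arrestin, changed by -1.07 in KO and -1.50 in WT; its difference of 0.43 had bounds of 0.20 and 0.67, an adjusted p of 0.319 (edgeR) and a place within 2-fold only. Pde4b, a cAMP phosphodiesterase, rose 5.38-fold in KO and 5.16-fold in WT and was shown equal, as was Rgs10, a regulator of G protein signalling.

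The narrowest and widest groups were housekeeping and proliferation. All 28 oxidative phosphorylation subunits were shown equal within 1.5-fold and 19 of them within 1.2-fold, against 75.8% and 16.2% of all genes. Their median difference was -0.03. The list's median level was 62.4 CPM, and genes at 50 to 200 CPM gave 93.8% within 1.5-fold and 36.3% within 1.2-fold. Atp5b, a subunit of ATP synthase, rose 1.54-fold in KO and 1.58-fold in WT, with bounds on the ratio of 0.862 and 1.11. Of 16 widely expressed reference genes 15 were shown equal; Actb, the most responsive, rose 3.42-fold in KO and 3.87-fold in WT (bounds on the ratio 0.740 and 1.06). Of 30 cell cycle genes, 5 were shown equal within 1.5-fold and 13 within 2-fold, against 75.8% and 91.3% of all genes. Their median bound was 2.33-fold, against 1.29-fold over all genes. The list's median level was 9.45 CPM, and genes at 2 to 10 CPM gave 55.5% within 1.5-fold and 88.9% within 2-fold. Bub1b, a mitotic checkpoint kinase, ranged over 30.2, 7.66, 17.9 and 32.0 CPM in untreated KO and 8.99, 14.1, 30.5 and 17.1 CPM in untreated WT, and its difference had bounds of -1.55 and 1.75.

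**Figure D5:**
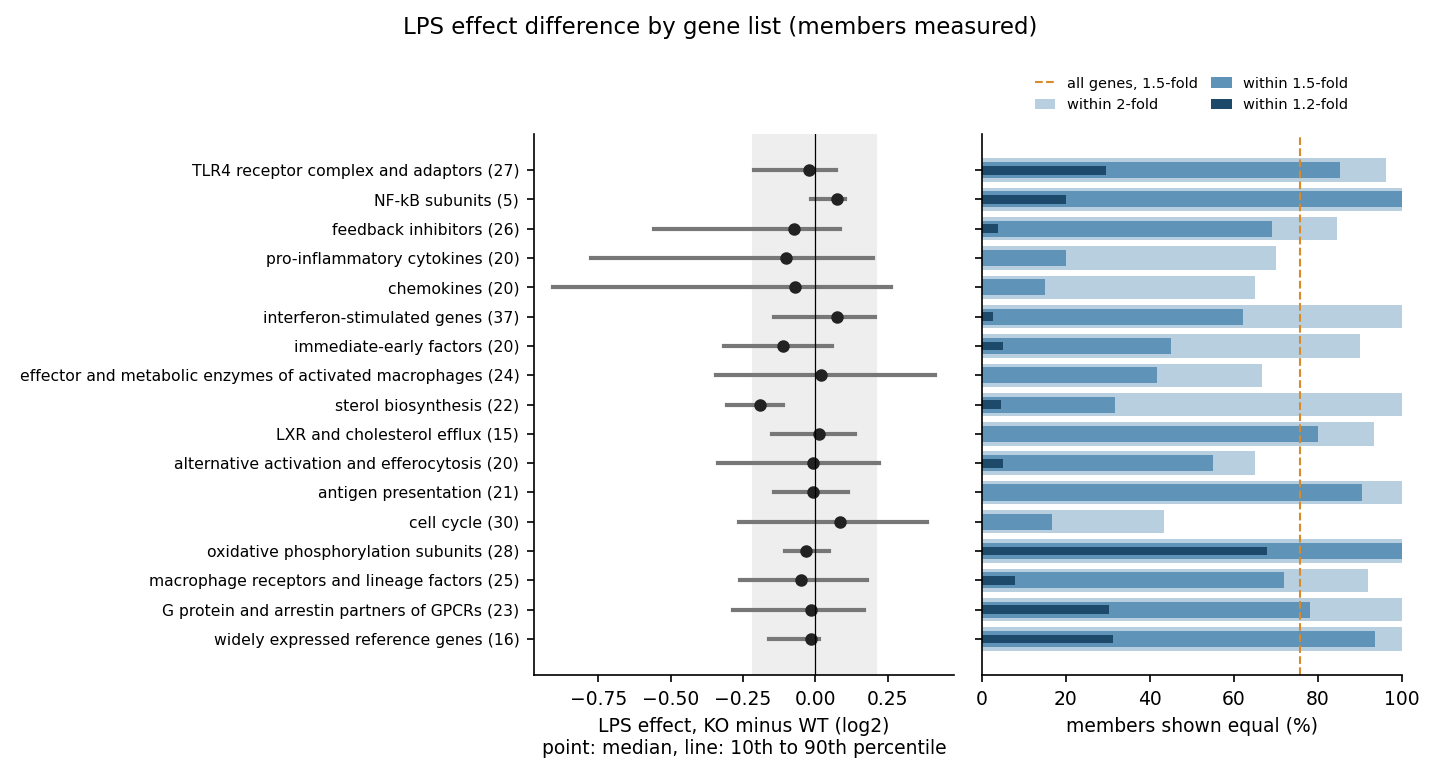
Left, the median (point) and the 10th to 90th percentile (line) of the difference of the LPS effect, KO minus WT (log2), for the measured members of 17 gene lists, with the same percentile range over all genes shaded. Right, the percentage of members shown equal within 2-fold, 1.5-fold and 1.2-fold (bars, light to dark), with a dashed line at the 75.8% of all genes within 1.5-fold; oxidative phosphorylation reached 100% and chemokines 15%.

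The 8 largest rises and 8 largest falls of the averaged LPS effect, among genes of at least 2 CPM, included no gene shown equal within 1.5-fold. Mir155hg, the host transcript of miR-155, rose 137-fold in KO and 143-fold in WT with bounds on the ratio of 0.509 and 1.80, and Adora2a, an adenosine receptor, rose 131-fold in KO and 139-fold in WT with bounds of 0.513 and 1.72. These 2 were shown equal within 2-fold. Serpinb2, a serine protease inhibitor, rose 168-fold in KO and 164-fold in WT, but with bounds of 0.302 and 3.47, and Col27a1, a collagen, had bounds of 0.222 and 6.39. Tmem200b and Rasgrf1 had a total of 1 count each in untreated KO, so no fold is given. Tmem200b stood at 6.77 ± 0.982 CPM in LPS-treated KO and 6.38 ± 1.55 CPM in LPS-treated WT, and Rasgrf1, a Ras exchange factor, at 7.22 ± 0.775 CPM in LPS-treated KO and 6.41 ± 1.97 CPM in LPS-treated WT (SD, n = 4 each).

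Lipg, which encodes endothelial lipase, was also among these rises. It stood at 65.3, 54.8, 51.6 and 48.7 CPM in LPS-treated KO and 0.490, 0.317, 0.426 and 0.902 CPM in untreated KO, against 105, 141, 165 and 103 CPM in LPS-treated WT and 0.698, 0.723, 0.594 and 0.476 CPM in untreated WT. With LPS the KO libraries were all below the WT libraries, and untreated they overlapped. The rise was 100-fold in KO and 203-fold in WT, with bounds on the ratio of 0.228 and 1.07 and an adjusted p of 0.869 (edgeR). Set directly against LPS-treated WT, LPS-treated KO was lower by -1.22 log2 (adjusted p 0.000986, edgeR). In that direct contrast 330 genes were called (2.85%), 80 higher in KO (0.69%) and 250 lower (2.16%), and untreated KO against untreated WT gave 1 (0.00863%), which was Gpr35.

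Among the falls, Rnf150, a ubiquitin ligase gene, had the narrowest bounds. It stood at 3.42, 2.69, 2.496 and 2.12 CPM in LPS-treated KO and 167, 132, 145 and 136 CPM in untreated KO, against 1.61, 2.37, 1.94 and 1.58 CPM in LPS-treated WT and 118, 128, 144 and 130 CPM in untreated WT. Its effects of -5.75 in KO and -6.12 in WT differed by 0.36, with bounds of -0.62 and 1.34. Cnr2, the peripheral cannabinoid receptor, had a difference of 0.56 (bounds on the ratio 0.502 and 4.31), and Gpr34, a lysophosphatidylserine receptor, of 0.28 (0.221 and 6.68). Angptl4, an inhibitor of lipoprotein lipase, Fam214a, Sox4, Rasgrp3 and Zfyve28 had differences of 0.35, 0.09, 0.93, 0.11 and 0.83, each with bounds that included equality and reached past 2-fold.

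At the other end, the 5 narrowest bounds belonged to genes that LPS changed little. Ptdss1, a phosphatidylserine synthase, Wbp1l, Faf2, Gpr107 and Sirt2, a deacetylase, had standard errors of 0.05 log2 and were shown equal within 1.2-fold. Wbp1l stood at 100.3, 103, 99.97 and 97.5 CPM in LPS-treated KO and 110.0, 105, 109 and 109.5 CPM in untreated KO, against 104, 102, 105 and 106 CPM in LPS-treated WT and 111, 108, 114 and 116 CPM in untreated WT. Its bounds on the ratio were 0.932 and 1.06. The widest bounds among responsive genes of at least 2 CPM, by the distance between them and beside Rasgrf1, Tmem200b and Fam214a, were those of Jag2, a Notch ligand (-2.39 and 3.26), and Aspm, a spindle protein (-2.83 and 2.78).

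Iffo2 and Proser1 were called for LPS in opposite directions in the 2 genotypes. Iffo2, an intermediate filament family gene, stood at 20.6, 18.4, 18.025 and 21.3 CPM in LPS-treated KO and 22.8, 27.1, 23.0 and 22.4 CPM in untreated KO, against 25.6, 27.2, 34.4 and 26.9 CPM in LPS-treated WT and 26.99, 24.4, 22.5 and 25.1 CPM in untreated WT. With LPS the KO libraries were all below the WT libraries, and untreated they overlapped. It fell by 0.28 log2 in KO and rose by 0.20 in WT, and the difference of -0.49 ± 0.12 (SE) had an adjusted p of 0.319 (edgeR). Proser1 fell by 0.13 in KO and rose by 0.13 in WT, and was shown equal within 1.5-fold, since the bounds of the difference were -0.42 and -0.09.

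The smallest p-values of the difference, picked after the values were seen, included those of Peg13 and Sema4c. Peg13, an imprinted non-coding RNA (chromosome 15, 72805602 to 72810324), stood at 15.3, 15.1, 17.5 and 15.9 CPM in LPS-treated KO and 30.8, 27.5, 29.6 and 27.2 CPM in untreated KO, against 10.4, 9.91, 9.57 and 10.6 CPM in LPS-treated WT and 27.2, 28.3, 26.3 and 24.8 CPM in untreated WT. With LPS the KO libraries were all above the WT libraries, and untreated they overlapped. It changed to 0.555 of the untreated level in KO and 0.380 in WT, a log2 difference of 0.55 ± 0.10 (SE) with bounds of 0.34 and 0.76 and an adjusted p of 0.231 (edgeR), while DESeq2 called it at an adjusted p of 0.00802. It was shown equal within 2-fold but not within 1.5-fold.

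Sema4c, a semaphorin, stood at 43.4, 31.9, 35.9 and 37.4 CPM in LPS-treated KO and 8.46, 7.08, 7.15 and 8.04 CPM in untreated KO, against 72.4, 61.6, 69.8 and 51.4 CPM in LPS-treated WT and 8.25, 8.85, 8.21 and 8.64 CPM in untreated WT. All KO libraries with LPS were below all WT libraries with LPS. The rise was 4.82-fold in KO and 7.51-fold in WT, a difference of -0.64 ± 0.14 (SE) with bounds of -0.93 and -0.35 and an adjusted p of 0.319 (edgeR). Inppl1, a lipid phosphatase, and Slc9a9, a sodium-proton exchanger, had differences of -0.30 (bounds -0.43 and -0.17) and 0.38 (0.21 and 0.56); both were shown equal within 1.5-fold, and DESeq2 called both different, with adjusted p of 0.0185 and 0.0232. Napepld, which makes N-acylethanolamines, had a difference of -0.88 with bounds of -1.30 and -0.46 and was not shown equal within 2-fold.

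Beside these values, the LPA effect, tested the same way against the same untreated libraries, differed between KO and WT in 3301 genes (28.5%) and was shown equal within 1.5-fold in 6852 (59.1%), within 1.2-fold in 567 (4.89%) and within 2-fold in 9745 (84.1%). Because the 2 comparisons share their untreated libraries, they are given side by side and not tested against each other.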

How the data were processed

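Poly(A) RNA was sequenced with a stranded kit, per the labels' protocols. The authors deposited raw read counts per gene in 1 table for all 24 libraries. The submitters' processing notes name STAR 2.5.2a and the mm10 build. How reads were assigned to genes, with which gene models and whether by strand, is not given in the sources used here, so genes with close copies or antisense partners are uncertain. Gene positions come from RefSeq GRCm38.p6.

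The counts were fitted with edgeR 4.0.16 (R 4.3.3) by its quasi-likelihood method with TMM scaling and robust dispersions, with 1 mean for each of 6 groups. Differences are unshrunk coefficients, standard errors come from the posterior dispersion, and 95% bounds from the t distribution. The larger p of a pair of one-sided tests against the 1.5-fold limit was adjusted by Benjamini-Hochberg over all 11590 genes. The fit and the equality test were tested on simulated data. DESeq2 1.42.0 and limma 3.58.1 (voom), other scalings, filters, limits, thinned counts, a replicate block and leaving out each library were alternatives. Genes with a group at 0 counts (5) got no bounds. KO totals are smaller, so KO values carry more counting error.

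Named genes were the 8 largest LPS rises and 8 largest falls of at least 2 CPM, opposite calls, the 5 narrowest and 5 widest bounds, and up to 3 members a list by the size of the averaged LPS effect. Some genes that the rule names are not reported here. Other genes were chosen after their values were seen. The members, lists and tests were chosen with earlier results of these data known. Sequences were to come from the largest rises and falls shown equal, of which there were 0, so Dusp2 and Rsad2 were taken from the lists.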

Additional observations from a re-analysis of the deposited data

Results flagged for a closer look

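Tested were 308 groups of 4 libraries, those of 76 genes and the 4 groups' response slopes. In 19, all for genes, 1 library stood apart from the other 3 by Dixon's test; chance gives about 1 in 20. The fourth LPS-treated KO library was the low one for Ptgs2 at 360 CPM, Nfkb1 at 838, Nfkbiz at 694 and Adora2a at 74.2. The second was the high one for Angptl4 at 0.141 CPM. In untreated KO, the first library was high for Angptl4 at 23.3 CPM and for Sirt2 at 158, and the second was high for Iffo2 at 27.1. The third was low for Adora2a at 0.426 CPM and held the only Rasgrf1 count at 0.0474, and the fourth held the only Tmem200b count at 0.041. In LPS-treated WT, the first library was high for Cd40 at 1190 CPM, the third was high for Clec10a at 4.71 and low for Rgs16, a regulator of G protein signalling, at 6.92. The fourth was low for Rel at 130 CPM and high for Scd1, a fatty acid desaturase, at 8.17. In untreated WT, the first library was low for Ciita at 30.9 CPM, the second was high for Maff at 3.77, and the third was low for Sox4 at 3.76. The part of single libraries in these values was not tested beyond leaving out each library in turn.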

How the results depend on the processing

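The count of genes with a different LPS effect was 0 in the main analysis, 4 under DESeq2 (Peg13 and Slc9a9 higher in KO, Grb2 and Inppl1 lower) and 0 under limma voom; the cause was not tested. Leaving out each library in turn gave 0 to 1 calls, the 1 being Slc8b1 without the first LPS-treated WT library (adjusted p 0.0358, edgeR). The smallest adjusted p of those fits ranged from 0.0358 to 0.686 (edgeR). It was 0.0611 with the 16 libraries alone and 0.0668 with the replicate block, against 0.231 in the main fit (edgeR). When each library was left out, genes shown equal within 1.5-fold numbered 8525 to 8724, and responsive ones 2030 to 2174. A limit of 1.2-fold gave 1878 and 111 by construction. The other settings gave 8317 (counts thinned to the smallest library) to 9177 genes shown equal under limits of 1.5-fold with adjustment. Of 75 named genes 60 kept their verdict in all settings that gave one, and of the 30 shown equal 25 did; the exceptions were Maff, Rsad2, Cd300a, Nr1h3 and Dusp2. With the replicate number as a block, 9177 genes and 2398 responsive genes were shown equal and 0 were called (983 at an unadjusted p below 0.05); Acod1 was then shown equal, as were 11 cell cycle genes, 9 cytokines and 11 sterol genes. The main fit took no pairing from the numbers, because the labels do not say whether same-numbered libraries share an animal or culture. Deviations of same-numbered LPS-treated and untreated libraries correlated at 0.20 to 0.51 in KO and 0.094 to 0.26 in WT. The best match was the same number for all KO replicates and for WT replicates 1, 2 and 3, while WT replicate 4 correlated best with number 1. Without the block, the main fit gave 8785 genes and 2194 responsive genes shown equal, and 698 at an unadjusted p below 0.05. If the numbers do pair libraries, the bounds of the main fit may be too wide, which was not tested. Genes of low level were seldom placed: 3.30% of genes under 2 CPM were shown equal, and the part of depth in that share was not tested.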
